A study of Mus musculus with 45 samples.

Results

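Cells of the mouse embryonic small intestine that carried an Axin2-driven tdTomato label at E13.5 (E marks the day of embryonic development) were compared with unlabelled epithelial cells of the same line and stage that lacked Lgr5. The samples were chosen by title, which gave 3 libraries of Axin2:tdTomato+ cells and 3 libraries of EpCAM+Lgr5-Axin2:tdTomato- cells, 6 of the 45 libraries in the series. The groups thus differ both in the label and in the Lgr5 gate, and the parts of these 2 in a difference cannot be told apart. Below, label difference means the log2 fold change of labelled over Lgr5-negative unlabelled cells. The label had been started at E9.5 in both, on a mixed C57BL/6 CD1 background given as wild type, and the samples were described as EpCAM-positive intestinal epithelium. Each library came from 500 sorted cells, and each replicate from a pool of 3 embryos. The labelled group is named without a statement on Lgr5, so its Lgr5 state is not given in the sources used here, nor are the recombinase, the reporter allele and the agent that started the label. The other groups used below for comparison are the same labelled and Lgr5-negative populations from the anterior gut part and the posterior gut part at E15.5 (1 embryo per replicate) and from an Id2 marker line at E13.5, each with 3 libraries, and the unlabelled Lgr5-positive cells of the Axin2 line at E13.5 and E15.5 and of the Id2 line at E13.5.

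Axin2 is a scaffold protein that promotes destruction of beta-catenin and is itself switched on by canonical Wnt signalling, so a lineage label driven from it marks cells, and their progeny, that responded to Wnt when the label was started. Lgr5 is a receptor for R-spondins, ligands that strengthen Wnt signalling, and it marks the stem cells of the adult intestinal crypt. The fetal gut tube is also patterned along its length, with factors such as Onecut2 and Gata4 in its proximal part and caudal homeobox genes towards its distal part.

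The 6 libraries held 16659872 to 19443224 reads in genes and 14419 to 15177 genes with at least 1 read, so depth was similar in both groups. Epcam, the surface adhesion protein used for sorting, stood at 2096, 2125 and 2272 CPM (read counts scaled to a common library size) in labelled replicates 1 to 3 and at 3084, 1952 and 2501 CPM in the Lgr5-negative replicates, and the groups overlapped. Of 14 genes of an intestinal epithelium list none was at 0 in the 6 libraries, and their summed levels were 7960 to 8970 CPM in labelled and 7750 to 10400 CPM in Lgr5-negative cells. Xist was present at 45.5 to 103 CPM and the summed level of 4 Y-linked genes was 0.0519 to 1.46 CPM in all 6 libraries. In the Id2 line, 2 of the 3 libraries labelled Lgr5-negative went against that label. They held 41.6 and 39.4 CPM of Lgr5 in replicates 2 and 3, beside 7.59 CPM in replicate 1, 9.37, 7.93 and 33.9 CPM in the Id2-labelled libraries and 60.8, 75.8 and 78.8 CPM in the unlabelled Lgr5-positive ones. They also held 2060 and 795 CPM of Cpa1, a pancreatic enzyme gene, against 206 CPM in replicate 1, 127, 0.881 and 301 CPM in Id2-labelled cells and 1.01 to 3.97 CPM in unlabelled Lgr5-positive cells. Results that rest on these 2 libraries are given below with and without them.

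No gene passed the test between labelled and Lgr5-negative cells at E13.5. With edgeR's quasi-likelihood test on all 45 libraries, 0 of 15513 genes had a Benjamini-Hochberg adjusted p below 0.05, which is 0% of the genes tested, and the adjusted p of every gene named below was 1. At an unadjusted p below 0.05 there were 123 genes higher in labelled cells (0.793% of those tested) and 109 lower (0.703%). Libraries of the groups did not overlap for 679 genes in the direction of labelled cells (4.38%) and for 551 genes in the direction of Lgr5-negative cells (3.55%). For genes with a mean log2 CPM of at least 3, the median half-width of the 95% interval of a log2 fold change was 0.61. That interval is not adjusted for the 15513 genes tested, so differences above 0.61 could also go uncalled. Sord, at a log2 fold change of 1.43, was not called. In the same fit, unlabelled Lgr5-positive cells differed from the same 3 Lgr5-negative libraries in 68 genes that were higher and 67 that were lower.

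The count of 0 depended on the tool. DESeq2 called 40 genes, 16 higher and 24 lower. Only 2 of these (Sord and Espn) had a mean log2 CPM of at least 2, and their libraries did not overlap. The other DESeq2 calls lay below that level. limma voom with library quality weights called 343 genes, 168 higher and 175 lower. That fit gave Lgr5-negative replicate 3 a weight of 9.54, the highest of the 45 libraries, against 0.598 and 0.821 for Lgr5-negative replicates 1 and 2 and 1.29 to 2.83 for the labelled libraries. With equal library weights, an alternative added after these counts were seen, limma voom called 0 genes. edgeR on the 33 libraries of the Axin2 line alone, also added after the result of 0 was seen, called 2 genes, Sord (adjusted p = 0.0440) and Abcb1a (adjusted p = 0.0298). The genes below are therefore described by their levels, and none passed the test on all 45 libraries.

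The Lgr5 transcript averaged 16.4 CPM ± 12.4 (SD, n = 3) in labelled and 4.53 CPM ± 3.28 (SD, n = 3) in Lgr5-negative cells, and the groups overlapped. Lgr5 stood at 27.0, 2.75 and 19.4 CPM in labelled replicates 1 to 3, and at 5.75, 0.819 and 7.03 CPM in the Lgr5-negative replicates. In both groups replicate 2 was the low library, and labelled replicate 2 lay below Lgr5-negative replicates 1 and 3. The log2 fold change was 1.86 (SE 0.78, n = 3 against 3). For comparison, unlabelled Lgr5-positive cells of the same stage held 89.6, 28.3 and 102 CPM, above every labelled library. Axin2, the gene that drove the label at E9.5, stood at 5.33, 2.56 and 4.36 CPM in labelled cells and at 3.16, 2.46 and 0.813 CPM in Lgr5-negative cells at E13.5. These ranges overlapped as well, and the log2 fold change was 0.93 (SE 0.60). Since the label is inherited, the Axin2 level at collection does not check which cells were labelled.

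**Figure D1:**
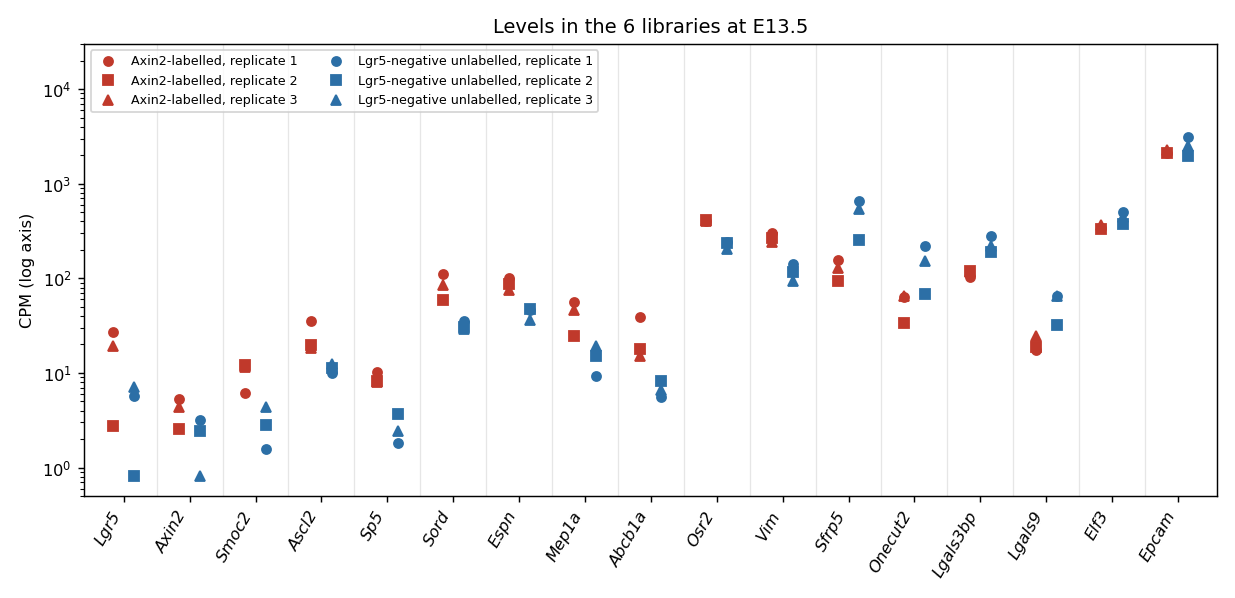
Level of 17 genes in each of the 6 libraries at E13.5, in CPM on a log axis, with red symbols for the 3 labelled libraries and blue symbols for the 3 Lgr5-negative unlabelled libraries; the symbol shape gives the replicate number. Lgr5 and Axin2 overlap between the groups, Sord and Osr2 lie above in labelled cells, and Sfrp5 lies below.

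Several stem cell and Wnt target genes were higher in every labelled library than in any Lgr5-negative library. Smoc2, a matricellular protein enriched in adult crypt stem cells, stood at 6.13, 12 and 11.5 CPM in labelled and 1.55, 2.79 and 4.36 CPM in Lgr5-negative cells (log2 fold change 1.77, SE 0.62). Ascl2, a transcription factor of crypt stem cells, stood at 35.4, 19.9 and 18.5 CPM against 10.1, 11.3 and 12.5 CPM (1.12, SE 0.48). Both genes separated the groups without overlap, but in unlabelled Lgr5-positive cells of this stage Smoc2 reached 156, 249 and 219 CPM, far above the labelled libraries. Sp5, a transcription factor switched on directly by Wnt signalling, stood at 10.3, 8.31 and 7.99 CPM against 1.81, 3.71 and 2.44 CPM (log2 fold change 1.74, SE 0.80). Cdx1, a caudal homeobox factor that is a Wnt target, stood at 36.6, 15.8 and 24.1 CPM against 9.37, 8.43 and 9.46 CPM (1.49, SE 0.71). Fzd10, a Frizzled receptor for Wnt ligands, stood at 27.5, 22.2 and 20.7 CPM against 4.14, 16.1 and 6.56 CPM (1.39, SE 0.68).

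The lists that hold these genes were less one-sided than the genes themselves, which were named for their small p. Of 23 stem cell genes tested, 0 passed the test, 16 had a positive and 7 a negative log2 fold change, and the median was 0.14, against a median of -0.00083 and 48.6% positive over all genes tested. Of these 23, 5 had no overlap in the direction of labelled cells and 0 in the other, beside 4.38% and 3.55% of all genes. Of 25 Wnt target and feedback genes, 0 passed, 15 were positive and 9 negative, the median was 0.14, and 5 had no overlap, all in the direction of labelled cells. The summed level of the Wnt target list did not separate the groups, at 837, 822 and 747 CPM in labelled and 560, 1100 and 843 CPM in Lgr5-negative cells. Of 18 Wnt receptors 12 were positive, and Fzd10 alone had no overlap. Of 11 Wnt ligands 6 were positive, and none had separate ranges.

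The promoters of Sp5 and of the labelled locus Axin2 are shown because both genes are read as Wnt targets, and only the first separated the groups. The windows are from RefSeq, on build GRCm38.p6, and run from 250 bases before to 50 bases after the annotated start, Sp5 at chr2:70474673-70474972 and Axin2 at chr11:108920099-108920398, both on the plus strand. Capitals mark CTTTGA, the core of the site bound by TCF/LEF factors, searched on both strands, where its reverse reads TCAAAG, with no overlap with another motif. It was found 2 times in the Sp5 window and 0 times in the Axin2 window, and 16% of the 32851 promoter windows held it at least once. For Sp5 and Axin2 only the first window listed for the gene was used, and sites outside it were not searched. A match is a description of the letters and does not show that a factor binds there.
Sp5: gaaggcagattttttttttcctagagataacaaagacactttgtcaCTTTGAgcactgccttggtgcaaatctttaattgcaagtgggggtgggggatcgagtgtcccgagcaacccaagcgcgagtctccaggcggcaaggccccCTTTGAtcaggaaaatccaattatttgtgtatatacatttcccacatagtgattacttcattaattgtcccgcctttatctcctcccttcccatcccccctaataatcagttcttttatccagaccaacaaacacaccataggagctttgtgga
Axin2: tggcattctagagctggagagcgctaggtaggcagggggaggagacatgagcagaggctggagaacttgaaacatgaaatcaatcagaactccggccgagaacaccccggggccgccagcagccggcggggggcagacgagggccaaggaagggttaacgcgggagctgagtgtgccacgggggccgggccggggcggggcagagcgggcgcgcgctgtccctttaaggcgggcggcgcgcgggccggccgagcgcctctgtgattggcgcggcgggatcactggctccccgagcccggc

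Among genes of adequate level without overlap, Sord had the smallest p in the direction of labelled cells. Sord, sorbitol dehydrogenase of the polyol pathway, stood at 110, 59.7 and 85.5 CPM in labelled and 35.1, 30.4 and 29.4 CPM in Lgr5-negative cells, a log2 fold change of 1.43 (SE 0.34, unadjusted p = 0.000148 by edgeR). Every labelled library held more Sord than any Lgr5-negative one. Espn, an actin-bundling protein of microvilli, stood at 100, 88.1 and 75.6 CPM against 45.8, 47.2 and 36.7 CPM (1.02, SE 0.26). Mep1a, a metalloprotease of the brush border, stood at 56.3, 24.8 and 46.4 CPM against 9.22, 15.1 and 19.2 CPM (1.55, SE 0.44). Mep1a was lowest in labelled replicate 2, which still lay above the highest Lgr5-negative library. Abcb1a, an efflux pump of the apical membrane, stood at 38.9, 17.7 and 15.2 CPM against 5.54, 8.28 and 6.56 CPM (1.82, SE 0.54). The other genes named in this direction were Arhgef26, an exchange factor for small GTPases (1.55, SE 0.44), Pdgfa, a growth factor sensed by the mesenchyme (0.83, SE 0.25), Fam110b (1.06, SE 0.33) and Gramd3 (0.66, SE 0.21).

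In the other direction, Sfrp5 encodes a secreted antagonist that binds Wnt ligands. It stood at 157, 93.2 and 129 CPM in labelled and 651, 253 and 540 CPM in Lgr5-negative cells, a log2 fold change of -1.93 (SE 0.67). In unlabelled Lgr5-positive cells of the same stage it was nearly undetected, at 0.458, 1.12 and 0.980 CPM. Labelled cells thus held an intermediate level, below each Lgr5-negative library and above each Lgr5-positive one. Lgals3bp, a secreted galectin-binding glycoprotein, stood at 104, 120.1 and 116 CPM against 279.5, 189 and 219 CPM (log2 fold change -1.02, SE 0.32). Lgals9, a galectin, stood at 17.4, 18.7 and 24.3 CPM against 64.5, 32 and 64.5 CPM (-1.41, SE 0.46). For both galectin-related genes Lgr5-negative replicate 2 was the library nearest to the labelled ones. Ifi35, an interferon-induced gene (-1.38, SE 0.40), Gsdmd, the pore-forming protein of pyroptosis (-0.69, SE 0.26), Arl14, a small GTPase (-0.88, SE 0.32), and Khdrbs3, an RNA-binding protein (-1.69, SE 0.63), also lay lower in all 3 labelled libraries.

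Genes of the proximal gut were mostly lower in labelled cells, and a few genes of the distal gut higher. The proximal and distal lists include genes, such as Sfrp5, Osr2, Fzd10 and Lin7a, that were known to differ in these data, so their direction is no independent evidence. Of 18 proximal genes tested, 0 passed the test, 16 had a negative log2 fold change and 2 a positive one, and the median was -1.18, beside -0.00083 over all genes. Libraries did not overlap for 5 of the 18, all lower in labelled cells, beside 3.55% of all genes in that direction. Their summed level was 1060, 945 and 1140 CPM in labelled and 2270, 1490 and 2170 CPM in Lgr5-negative cells, so that every labelled library lay below every Lgr5-negative one. Onecut2, a transcription factor of the proximal gut, stood at 63.5, 34.0 and 64.7 CPM against 218, 68.7 and 152 CPM (-1.43, SE 1.01). Slc40a1, the iron exporter ferroportin, stood at 465, 451 and 481 CPM against 755, 555 and 779 CPM (-0.58, SE 0.35). Tm4sf4, a tetraspanin relative, overlapped at 88.8, 100.4 and 184 CPM against 330, 152 and 312 CPM. Gata4, which was chosen after its values were seen, overlapped as well, at 151, 127 and 129 CPM against 121, 274 and 210 CPM. Of 11 stomach and esophagus genes 10 were negative, with a median of -1.98, or -1.78 with the gene that had no read in 1 group set at the bound that 3 counts per library allow, and 4 had no overlap, all lower, beside 3.55% of all genes. These were genes of low level, such as the stomach surface protein Vsig1 at 2.46, 1.08 and 1.97 CPM against 12.8, 4 and 10.4 CPM.

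The distal list had 14 genes tested, of which 0 passed, 8 were positive and 4 negative, with a median of 1.03, and 5 had no overlap upwards against 2 downwards, beside 4.38% and 3.55% of all genes. Osr2, a zinc finger transcription factor, stood at 407, 418 and 407 CPM in labelled and 244, 236 and 204 CPM in Lgr5-negative cells (log2 fold change 0.85, SE 0.35). Lin7a, a scaffold protein of cell junctions, stood at 29.5, 27.7 and 39.3 CPM against 16.7, 10.7 and 10.2 CPM (1.36, SE 0.65). Both separated the groups, as did Cdx1 and Fzd10 above. The posterior Hox gene Hoxa9 went the other way, with 0 reads in each labelled library and 6, 10 and 4 reads in the Lgr5-negative libraries. Of 29 Hox genes 16 were positive and 11 negative, with 4 genes without overlap upwards and 5 downwards, beside 4.38% and 3.55% of all genes. Hoxd3 stood at 3.42, 2.60 and 6.64 CPM against 0.777, 0.433 and 1.51 CPM (2.22, SE 1.02). Members of the Hox clusters are alike in part of their sequence, so their counts may be uncertain, which was not tested.

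**Figure D2:**
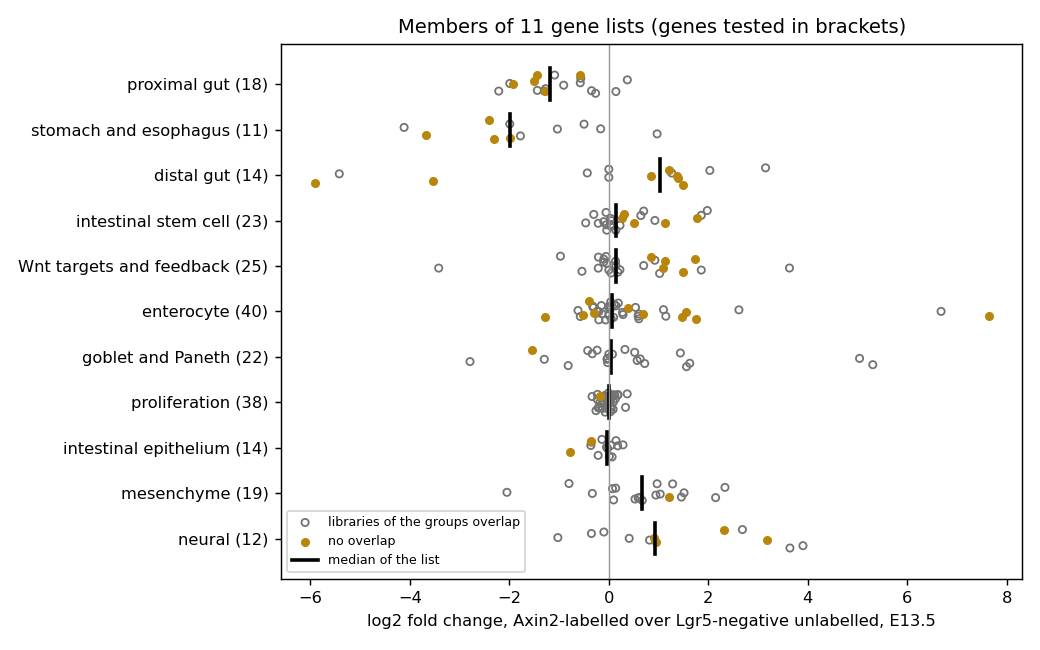
Log2 fold change at E13.5, labelled over Lgr5-negative unlabelled, of the tested members of 11 gene lists, with the number tested in brackets; filled points are genes whose libraries did not overlap and black bars are list medians. The proximal list centres at -1.18 and the distal list at 1.03, while proliferation genes lie close to 0; points beyond 5 are genes with almost no reads in 1 group, whose value depends on the prior count.

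The same axis was described with genes called in libraries outside the comparison. These sets were formed after the list values above had been seen, and 6 sets from 3 comparisons were examined. A comparable set from the anterior part at E15.5 was empty, because edgeR called 0 genes there between Lgr5-positive and Lgr5-negative cells, with 207 at an unadjusted p below 0.05. Of 289 genes called higher in the posterior than the anterior part at E15.5, 234 (81%) had a positive log2 fold change at E13.5, with a median of 0.26, and 89 had no overlap in that direction against 1 in the other. Of 276 genes called higher in the anterior part, 215 (77.9%) were negative, with a median of -0.33, and 60 had no overlap in that direction against 2 in the other. Over all 15513 genes tested, 48.6% were positive and 7776 genes negative, and 4.38% had no overlap upwards and 3.55% downwards. Averaged over the posterior set, log2 CPM relative to each gene's mean over the 6 libraries was 0.21, 0.18 and 0.24 in labelled and -0.14, -0.29 and -0.21 in Lgr5-negative cells. The posterior set thus separated the groups. Over the anterior set it was -0.13, -0.36 and -0.19 in labelled and 0.31, -0.03 and 0.41 in Lgr5-negative cells. Here Lgr5-negative replicate 2 was the one nearest to the labelled libraries. Anterior and posterior parts were not sorted apart at E13.5, so the share of cells from each part in these libraries is not known and its part in the differences was not tested.

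Sets from the Lgr5 sort of the Id2 line separated the groups, the set lower with Lgr5 only narrowly, and those of the posterior part did not. The Id2 libraries that formed these sets also differed in the summed level of the Y-linked genes. It was 107, 0.331 and 0.528 CPM in unlabelled Lgr5-positive and 104, 180 and 291 CPM in Lgr5-negative replicates 1 to 3. The part of embryo sex in these sets was not tested. Of 23 genes called higher in Lgr5-positive than Lgr5-negative cells of the Id2 line at E13.5, 21 (91.3%) were positive in the Axin2-label comparison, with a median of 0.60, among them Sord, Espn and Arhgef26, and their mean centred log2 CPM was 0.46, 0.19 and 0.31 in labelled and -0.41, -0.22 and -0.33 in Lgr5-negative cells. Of 51 called lower in the Id2 line, 42 (82.4%) were negative, with a median of -0.46, among them Sfrp5, Lgals9 and Lgals3bp, and the mean was -0.32, -0.56 and -0.01 in labelled and 0.30, 0.02 and 0.56 in Lgr5-negative cells. Without the 2 Id2 libraries that held Lgr5 against their label, which leaves 1 Lgr5-negative library assumed to vary like the others, edgeR called 2 genes higher and 4 lower with Lgr5 in the Id2 line. Of these, the 2 were positive (100%) and the 4 negative (100%) in the Axin2-label comparison. Of 51 genes called higher with Lgr5 in the posterior part at E15.5, 32 (62.7%) were positive, with a median of 0.13, and of 10 called lower, 7 (70%) were negative, with a median of -0.10. For both of these posterior sets the libraries of the groups overlapped. Beside these shares, 48.6% of all genes tested were positive, and 7776 of 15513 were negative. Sets of position and of Lgr5 share members: Sord and Espn are also in the posterior set, and Sfrp5, Lgals9 and Lgals3bp in the anterior set.

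**Figure D3:**
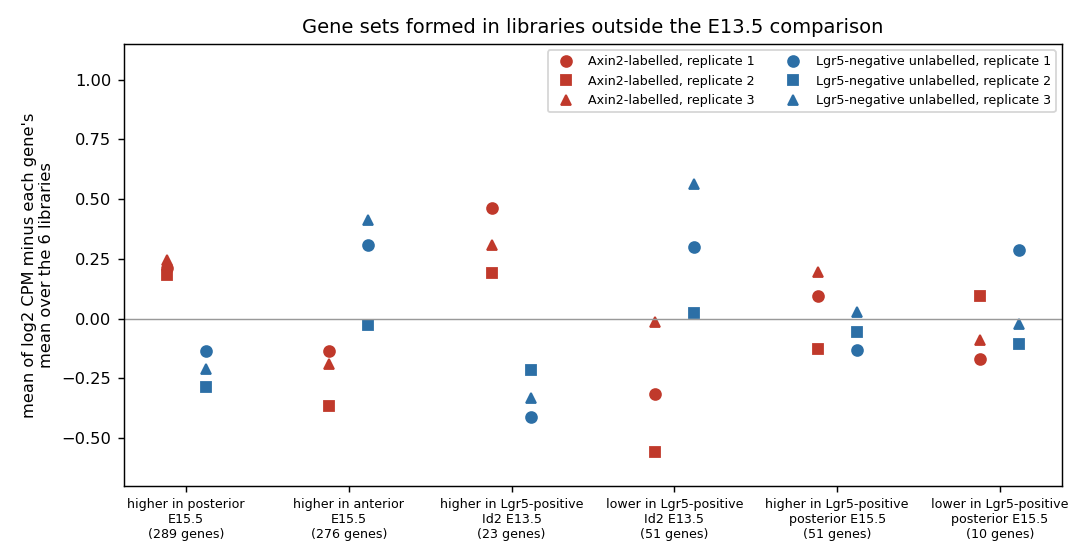
Mean over each gene set of log2 CPM minus the gene's mean over the 6 libraries, one symbol per library (red, labelled; blue, Lgr5-negative unlabelled). The posterior set lies between 0.18 and 0.24 in labelled and between -0.29 and -0.14 in Lgr5-negative libraries, whereas the set of genes higher with Lgr5 in the posterior part at E15.5 overlaps.

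Differentiation genes gave no common direction. Of 40 enterocyte genes 24 were positive and 16 negative, with a median of 0.07, and 6 had no overlap upwards against 4 downwards, beside 4.38% and 3.55% of all genes. Papss2, which makes the sulfate donor of the cell, stood at 72.7, 23.6 and 38.2 CPM against 19.9, 13.9 and 14.6 CPM (1.48, SE 0.50). Slc26a3, a chloride and bicarbonate exchanger, held 2.36, 0.344 and 0.726 CPM in labelled cells and no read in the Lgr5-negative libraries. Labelled replicate 1 was the highest labelled library for both genes, and for Sord, Mep1a and Abcb1a above. Of 22 goblet and Paneth genes 11 were positive and 10 negative, with a median of 0.04, and Spdef, a goblet cell transcription factor, stood at 2.16, 4.62 and 1.87 CPM against 7.35, 9.53 and 8.48 CPM. Of 33 enteroendocrine genes 15 were positive and 17 negative, and Rfx6, a factor of endocrine precursors, stood at 23.9, 42.2 and 24.7 CPM against 66.8, 45.5 and 65.4 CPM. Pax6, of the same list, separated the other way on few reads, with 7, 6 and 19 in labelled and 0, 2 and 0 in Lgr5-negative libraries. Without overlap were 0 goblet and Paneth genes upwards and 1 downwards, and 2 enteroendocrine genes upwards and 1 downwards. Over all genes these shares were 4.38% and 3.55%. Neither Spdef nor Rfx6 overlapped between the groups, yet their log2 fold changes of -1.55 (SE 0.99) and -0.97 (SE 0.57) had unadjusted p-values of 0.127 and 0.0993 by edgeR.

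Summed levels of proliferation and core endoderm genes overlapped between the groups. Of 38 proliferation genes 16 were positive and 22 negative, with a median of -0.01 and 1 gene without overlap, and their summed level ran from 7760 to 8530 CPM in labelled and from 7880 to 8900 CPM in Lgr5-negative cells. Of 18 core endoderm factors 9 were positive and 9 negative, and 4 had no overlap, all lower in labelled cells, beside 3.55% of all genes in that direction. Elf3, an epithelial ETS factor, was one of them, at 339, 336 and 362 CPM against 500.0, 376 and 449 CPM (-0.35, SE 0.17). Of 24 fetal progenitor genes 17 were positive, with a median of 0.12, and Bex1 stood at 499, 590.3 and 506 CPM against 438, 301 and 315 CPM (0.60, SE 0.19). Hmga2, a chromatin protein of fetal tissues, overlapped, at 178, 161 and 179.6 CPM against 163, 98.2 and 109 CPM. In the BMP list 12 of 24 were positive, and Id1, an early BMP target, lay lower in labelled cells, at 8.09, 10.6 and 10.4 CPM against 24.4, 16.9 and 25.6 CPM. In the Hedgehog list 10 of 13 were positive, with a median of 0.40. Its epithelial ligand Shh did not overlap, at 68.7, 51.9 and 48.5 CPM against 36.6, 45.5 and 28.0 CPM, while the related ligand Ihh did overlap, at 269, 223 and 251 CPM against 109.6, 242 and 182 CPM. Efnb2, a membrane-bound ephrin ligand, stood at 80.6, 54.7 and 55.7 CPM against 26.8, 52.3 and 28.9 CPM (0.82, SE 0.38).

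Transcripts of other cell types were low but not equal between the groups. Of 19 mesenchyme genes tested, 0 passed the test, 16 were positive and 3 negative with a median of 0.67, and 1 had no overlap upwards and 0 downwards. Of 12 neural genes, 0 passed, 9 were positive and 3 negative with a median of 0.92, and 4 had no overlap upwards and 0 downwards. Over all genes 48.6% were positive, and 4.38% had no overlap upwards and 3.55% downwards. The mesenchyme list summed to 557, 495 and 546 CPM in labelled and 335, 365 and 335 CPM in Lgr5-negative cells. Most of that difference was Vim, an intermediate filament protein, at 304, 269 and 243 CPM against 141, 116 and 94.2 CPM (log2 fold change 1.21, SE 0.38). Without Vim the other 21 genes summed to 254, 226 and 303 CPM against 194, 250 and 241 CPM, and the groups overlapped. The neural list summed to 24.0, 41.1 and 84.3 CPM against 19.5, 17.9 and 31.5 CPM, with the highest value in labelled replicate 3. That library held 16.1 CPM of Ret, a receptor of enteric neuron precursors, and 9.18 CPM of the collagen Col1a1, against at most 1.16 and 1.51 CPM in the Lgr5-negative libraries. Immune genes summed to 2.81 to 8.07 CPM, erythroid genes to 2.89 to 16 CPM and endothelial genes to 47.7 to 75.7 CPM in the 6 libraries, with 8 of 13, 8 of 12 and 8 of 12 genes under 1 CPM in all of them. Mesothelial list genes summed to 758 to 1040 CPM, a list that holds the epithelial keratin Krt19. The pancreatic enzyme gene Cpa1 stood at 33.6 CPM in Lgr5-negative replicate 3 and at no more than 0.703 CPM in the other 5 libraries. The part of such cells in the differences above was not tested. In bulk libraries fewer cells of a type and less RNA per cell cannot be told apart.

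The labelled and Lgr5-negative populations of the other settings share no library with this comparison. The same edgeR test called 0 genes in the anterior part at E15.5 (133 at an unadjusted p below 0.05), 0 in the posterior part (385) and 1, lower in labelled cells, in the Id2 line (880, or 373 without the 2 libraries that went against their label). The 54 genes with unadjusted p below 0.05, higher at E13.5 and with log2 CPM of at least 2, were also positive in 42 cases (77.8%) in the anterior and 45 (83.3%) in the posterior part, beside 47.5% and 51.9% of the 10436 genes of that level. In the Id2 line 7 of the 54 (13%) were positive, beside 51.6%. Without the 2 Id2 libraries that held Lgr5 against their label it was 20 of 54 (37%), beside 52.5%. Of the 31 genes lower at E13.5, 28 (90.3%) were negative in the anterior part, 24 (77.4%) in the posterior part and 2 (6.45%) in the Id2 line, beside 52.5%, 48.1% and 48.4%. Without those 2 libraries the Id2 count was 7 of 31 (22.6%), beside 47.5%. An unadjusted p below 0.05 in the same direction was reached by 9 of the 54 (16.7%) in the anterior and 4 (7.41%) in the posterior part, beside 0.47% and 1.44% of genes of that level. Of the 31 lower genes 2 (6.45%) reached it in the anterior and 0 in the posterior part, beside 0.287% and 0.402%, and in the Id2 line 0 of either group did, beside 2.13% and 2.16%. These shares describe genes that were picked for their difference at E13.5.

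Values of the label difference for single genes varied between settings. For Sord the label difference was 1.43 (SE 0.34) at E13.5, 0.53 (SE 0.33) in the anterior and 0.17 (SE 0.33) in the posterior part, and -0.87 (SE 0.34) in the Id2 line. For Lgr5 it was 1.86 (SE 0.78), 2.22 (SE 0.77), 1.43 (SE 0.76) and -0.79 (SE 0.74) in that order. For Vim it was 1.21 (SE 0.38), 1.43 (SE 0.40), 0.02 (SE 0.38) and -1.54 (SE 0.39). For Sfrp5 it was -1.93 (SE 0.67), -0.88 (SE 0.66), 0.78 (SE 1.02) and 1.11 (SE 0.66), and the posterior libraries held at most 1.26 CPM of it. Without the 2 Id2 libraries that held Lgr5 against their label, the Id2 values became -0.30 (SE 0.46) for Sord, 1.16 (SE 1.10) for Lgr5, -0.43 (SE 0.49) for Vim and 0.36 (SE 0.91) for Sfrp5, so that the sign for Lgr5 turned.

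**Figure D4:**
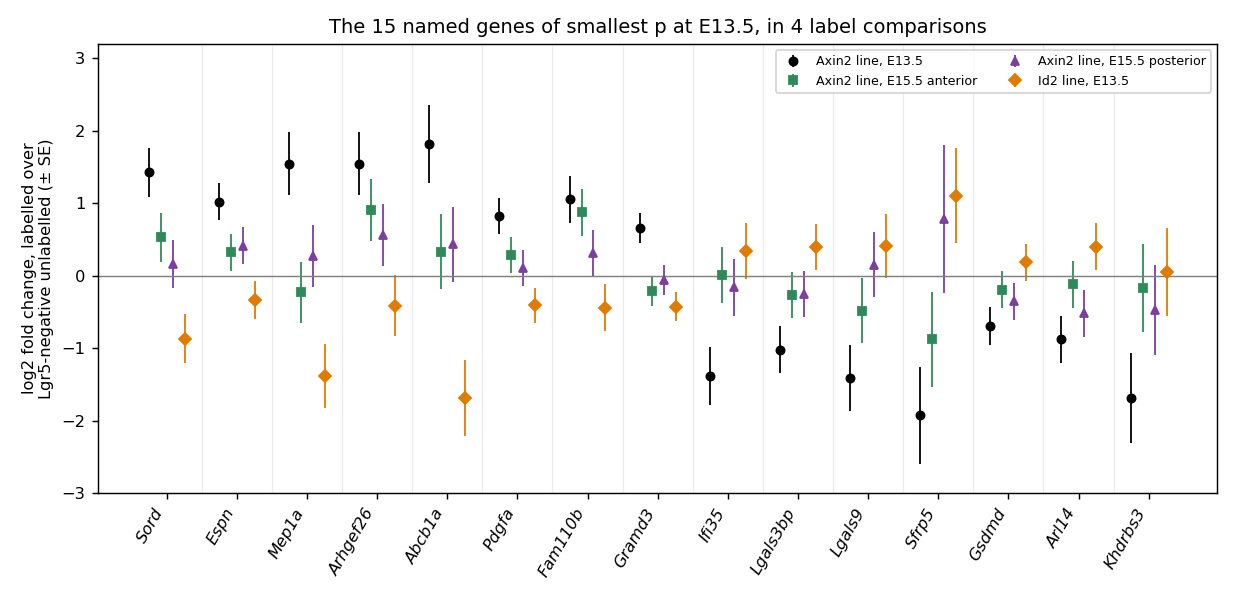
Log2 fold change of labelled over Lgr5-negative unlabelled cells, with its SE, for the 8 genes named as higher (left) and 7 of those named as lower (right) in the Axin2 line at E13.5, shown in 4 label comparisons with 3 libraries per group. Sord goes from 1.43 at E13.5 to -0.87 in the Id2 line with all 3 Lgr5-negative libraries, and the E15.5 values lie nearer to 0; the genes were chosen on the black points.

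The differences between settings were tested directly. No gene had a label difference at E13.5 that differed from the mean label difference of both gut parts at E15.5, 0 of 15513 by edgeR at adjusted p below 0.05, with 222 genes at an unadjusted p below 0.05. DESeq2 called 41 genes and limma voom 47 in this test, and limma voom with equal library weights called 0. Between the Axin2 and Id2 lines 1 gene differed. Slc5a11, a sodium-coupled inositol transporter, had a label difference of 2.48 (SE 0.82) in the Axin2 line and -7.38 (SE 1.11) in the Id2 line, a difference of 9.86 on the log2 scale (SE 1.42, adjusted p = 0.000522 by edgeR). Slc5a11 stood at 2.61, 3.59 and 2.90 CPM in Axin2-labelled cells and at 0, 1.2 and 0.406 CPM in their Lgr5-negative cells. In the Id2 line it stood at 0, 0 and 0.036 CPM in labelled cells and at 2.97, 2.84 and 2.64 CPM in Lgr5-negative cells. Its level was below that asked of named genes, and a fold against libraries at 0 depends on the prior count. For Sord the line difference was 2.3 (SE 0.48) and for Vim 2.76 (SE 0.55), each with an adjusted p of 0.092 by edgeR, which misses the threshold. With a replicate block, which takes same-numbered libraries as related, edgeR called both, at an adjusted p of 0.0108 for Sord and 0.00109 for Vim. DESeq2 called both as well (0.00105 and 0.000384). limma voom called only Vim of the pair, at 0.00584 with quality weights and 0.0150 with equal weights. RLE size factors, no filter and leaving out a replicate called neither. Without the 2 Id2 libraries that held Lgr5 against their label the difference was 9.91 for Slc5a11 (SE 1.54, adjusted p = 0.00335 by edgeR), 1.72 for Sord (SE 0.55) and 1.63 for Vim (SE 0.59), the last pair with an adjusted p of 1. Slc5a11 was then again the 1 gene called.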

How the data were processed

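RNA was measured in 500 sorted cells per library by polyA-based SMARTer cDNA synthesis, 15 cycles of amplification and Ovation Ultralow library preparation, per the labels' protocols. For each library the authors deposited whole-number counts of reads per gene. STAR 2.3.1z13, HTSeq 0.6.1p1 and build mm9 are named per the submitters' processing notes; no annotation or strand setting is stated, so overlapping and antisense genes cannot be separated. The 5 closing rows that name no gene (24.6 to 29.2% of the reads in the 6 libraries) were left out. The reads carry no molecular identifiers, and counting error after amplification is understated.

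Counts were tested with edgeR 4.0.16 in R 4.3.3 (quasi-likelihood, robust, TMM) on all 45 libraries as 15 group means with 30 residual degrees of freedom. filterByExpr (minimum count 10, total 15) kept 15513 of 23366 genes, and genes with a Benjamini-Hochberg adjusted p below 0.05 were called. The SE is the absolute log2 fold change divided by the square root of F, and CPM uses TMM effective library sizes. The fitting was tested on simulated data. Replicates of a group differed by a chi-square of 18.7 to 133 per degree of freedom, so none was a copy. The series' design text calls the replicates biological.

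The members and the 32 gene lists were chosen with earlier results of these data known; 623 of 626 list genes were matched. Named genes are Lgr5, Axin2 and Epcam, then up to 15 called genes per direction, filled to 8 by smallest unadjusted p among genes with log2 CPM of at least 2 (prior count 2), no overlap and a proper symbol, and up to 4 members of smallest p per list; some genes that this rule names are left out here. Alternatives were DESeq2 1.42.0, limma 3.58.1 (voom), RLE size factors, no filter, fewer libraries, a replicate block, leaving out each replicate and, added after seeing the data, leaving out Id2 Lgr5-negative replicates 2 and 3.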

Additional observations from a re-analysis of the deposited data

Results flagged for a closer look

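The label difference of Slc5a11 differed between the Axin2 and Id2 lines by 9.86 log2 units (SE 1.42, with an adjusted p = 0.000522 by edgeR's quasi-likelihood test over all genes). It rests on few reads, since all 6 libraries of the Axin2 line comparison held at most 3.59 CPM. Without the 2 Id2 libraries labelled Lgr5-negative that held 41.6 and 39.4 CPM of Lgr5, it was 9.91 (SE 1.54, adjusted p = 0.00335 by edgeR).

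Besides Slc5a11, 7 of the 48 named genes had separate ranges in opposite directions in the 2 lines, and the test of the difference did not pass for any of these 7. The genes were named largely for a small p in the Axin2 line, and the matching share over all genes was not counted. Ifi35 had a label difference of -1.38 in the Axin2 line and 0.35 in the Id2 line (adjusted p = 0.728 by edgeR), Lin7a 1.36 and -1.62 (0.728), Hoxd3 2.22 and -1.68 (0.880), Bex1 0.60 and -0.38 (0.463), and Onecut2 -1.43 and 1.5 (1). Without the same 2 Id2 libraries the Id2 values were 0.26 for Ifi35, -1.43 for Lin7a, -2.29 for Hoxd3, -0.38 for Bex1, 1.16 for Onecut2, 0.66 for Rfx6 and 1.01 for Spdef. With all libraries Rfx6 had -0.97 and 0.90 and Spdef -1.55 and 1.06, each with an adjusted p of 1 by edgeR. Spdef also had separate ranges the other way in the posterior part at E15.5, where its label difference was 1.33; that difference from E13.5 was not tested.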

How the results depend on the processing

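For labelled against Lgr5-negative cells at E13.5, RLE size factors, no filter, the 12 libraries of the line at E13.5, the 6 libraries alone, limma voom with equal weights and leaving out each replicate (0 to 0) all called 0 genes; DESeq2 called 40, limma voom with quality weights 343 and edgeR on 33 libraries 2. For the difference between stages DESeq2 called 41 genes and limma voom 47, and the other settings 0. For the difference between lines, where 1 gene was called, DESeq2 called 55, limma voom 7, limma voom with equal weights 4, and leaving out a replicate gave 1 to 2 genes, with 2 only without Lgr5-negative replicate 2; leaving out 2 Id2 libraries that went against their label, chosen after seeing the data, gave 1. Slc5a11 itself was 9.41 with an adjusted p of 0.123 by limma voom. Equal weights took the voom count at E13.5 from 343 to 0; the cause of the other differences between tools was not tested. Of 48 named genes, 0 of which passed on all 45 libraries, 33 were called by weighted voom, 3 by DESeq2 and 2 on 33 libraries. With single replicates left out, Col1a1 ranged from -0.20 (without labelled replicate 3) to 3.61 and Cpa1 from -5.08 to 4.01 (without Lgr5-negative replicate 3); Cpa1 turned to 0.19 by limma voom with equal weights. Counts of the gene sets formed outside the comparison stayed within 1.5 times under every setting, at 210 to 255 of the posterior and 188 to 228 of the anterior genes.

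Replicate numbers are shared by the groups. Same-numbered labelled and Lgr5-negative libraries of the Axin2 line at E13.5 did not deviate together (r = -0.12, 0.10 and 0.28 over 9289 genes). The numbers were therefore not taken as pairs. For the Id2 libraries, which the difference between lines also uses, this was not tested. Reads in genes went with the number in all Id2 groups. They were 36125768 to 37729425 in replicate 1, 26888154 to 29069136 in replicate 2 and 31045226 to 33177543 in replicate 3. The summed level of the Y-linked genes did not go with the number. In replicates 2 and 3 it was 257 and 231 CPM in Id2-labelled and 180 and 291 CPM in Lgr5-negative cells. In the same replicates it was 0.561 and 1.06 CPM in labelled and 0.331 and 0.528 CPM in unlabelled Lgr5-positive cells. Same-numbered Id2 libraries thus differed in embryo sex, although the block gives them a shared term. With a replicate block 0 genes were called at E13.5 and 0 between stages, while 13 were called between lines, 11 higher and 2 lower. In the Axin2 line at E13.5, not every library correlated best with its own number.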
